A study of Mus musculus with 15 samples.

Results

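The genes described here are 10 members of the matrix metalloproteinase (Mmp) and tissue inhibitor of metalloproteinase (Timp) families, namely Mmp2, Mmp9, Mmp11, Mmp14, Mmp15, Mmp16, Timp1, Timp2, Timp3 and Timp4. They were taken by symbol from a matrix of 55359 mouse genes, and each symbol matched 1 gene. Of the 10, 7 had reads in at least 1 sample and 3 (Timp1, Timp3 and Timp4) were listed at 0 in all 15 samples. RNA was sequenced from 5 groups of 3 samples. The 46LCNEC line was established from a large cell neuroendocrine carcinoma (LCNEC) of a QKO mouse given Ad-CMVcre, and the 57SCLC line from a small cell lung carcinoma (SCLC) of a QKO mouse given Ad-K5cre. QKO mice carry a null Rbl1 and floxed tumor suppressor genes, among them Rb1 and Trp53, and both lines and their tumors share these deletions. Each histology is represented by 1 line. The cells were sampled as dishes A, B and C (46LCNEC_cell, adherent) and flasks A, B and C (57SCLC_cell, floating aggregates). The allografts were subcutaneous tumors grown from these lines in immunocompetent syngeneic QKO mice, with 3 from the first line (46LCNEC_allo, numbered 312, 319 and 321) and 3 from the second (57SCLC_allo, numbered 275, 316 and 317), and they hold host cells as well as tumor cells. Lung was normal tissue of littermates CT3, CT4 and CT5, whose genotype, age and sex are not given in the sources used here. The dishes and flasks were different vessels of 1 line at 1 passage, and no source says whether the tumors came from separate mice, so the p-values measure the spread between these samples, which may be technical.

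Mmps are zinc-dependent endopeptidases that cleave collagens, laminins and other components of the extracellular matrix, and many are secreted as inactive proenzymes. Mmp14, Mmp15 and Mmp16 are anchored in the cell membrane, whereas Mmp2 and Mmp9 (the gelatinases) and Mmp11 are secreted. Timps are secreted proteins that bind and inhibit active Mmps, and Timp2 also takes part in the activation of pro-Mmp2 on the cell surface, as the bridge between Mmp14 and the proenzyme. In lung tumors, fibroblasts, macrophages and neutrophils are known sources of these enzymes besides the tumor cells.

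The samples held 9480244 (tumor 275) to 44876572 (flask C of 57SCLC_cell) reads, with a median of 26502525. Flasks A and C of 57SCLC_cell had the largest chi-square between replicates, at 144 per degree of freedom, against 2.80 for flasks A and B. This measure grows with the number of reads, and tumors 319 and 321 of 46LCNEC_allo reached 133 in smaller libraries. It therefore does not rank which replicates differed most. Gene counts include exons outside the floxed parts and so cannot test the deletions. Rb1 stood between 247 and 329 normalized counts in Lung, 66.6 and 99.9 in the 46LCNEC dishes, 183 and 290 in their tumors, 229 and 777 in the 57SCLC flasks, and 244 and 469 in their tumors. The summed level of 6 neuroendocrine markers was 48769 to 62149 in 57SCLC_cell and 39962 to 52039 in 57SCLC_allo, against 262 to 284 in Lung. In 46LCNEC_cell it was 28651 to 31527, nearly all from Ncam1 (29936 on average), while Chga averaged 4.23 there and 6.54 in Lung, so the neuroendocrine label of this line rested on Ncam1 in these data. In 46LCNEC_allo it was 3090 to 7402. The 5 epithelial markers summed to 141 to 257 there, against 6651 to 7681 in the dishes. Krt19 carried this difference (6902 ± 512 in dishes and 13.4 ± 9.51 in tumors). Of the 4 epithelial markers tested, 1 was called lower, beside 22.8% of all genes called. Alveolar markers summed to 228917 to 307770 in Lung.

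The promoters of Mmp14, Mmp15 and Mmp9 are shown because these genes had the largest called differences between lines or between cells and allografts among the members tested. Each is the 250 bases before the annotated start of the canonical transcript (GRCm39, plus strand), at chr14:54668628-54668877 for Mmp14, chr8:96078645-96078894 for Mmp15 and chr2:164789889-164790138 for Mmp9. None of these bases lies in an annotated exon. Capitals mark matches to the AP-1 motif (TGANTCA, N for any base) or the GC box (GGGCGG), searched on both strands, and the TATA box (TATAAA) was searched as well.
Mmp14: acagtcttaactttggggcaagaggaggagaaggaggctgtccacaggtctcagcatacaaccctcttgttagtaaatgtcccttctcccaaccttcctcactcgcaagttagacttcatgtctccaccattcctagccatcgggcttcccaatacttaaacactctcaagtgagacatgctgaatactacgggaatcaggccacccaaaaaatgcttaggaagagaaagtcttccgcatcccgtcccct
Mmp15: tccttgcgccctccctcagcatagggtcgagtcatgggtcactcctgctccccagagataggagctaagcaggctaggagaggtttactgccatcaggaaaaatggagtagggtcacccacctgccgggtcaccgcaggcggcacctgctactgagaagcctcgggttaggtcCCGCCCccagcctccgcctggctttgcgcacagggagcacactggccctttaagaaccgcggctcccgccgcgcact
Mmp9: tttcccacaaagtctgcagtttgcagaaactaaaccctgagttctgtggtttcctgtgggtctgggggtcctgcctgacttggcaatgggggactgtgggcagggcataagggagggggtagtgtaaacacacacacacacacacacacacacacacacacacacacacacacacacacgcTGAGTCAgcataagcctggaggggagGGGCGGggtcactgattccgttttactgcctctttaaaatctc
The Mmp9 promoter held an AP-1 motif 69 to 63 bases before the start and a GC box 43 to 38 bases before it. The Mmp15 promoter held a GC box on the other strand at 77 to 72 bases, and the Mmp14 window held none of the 3 motifs. Of 17953 promoters of protein-coding genes, 5.50% held the AP-1 motif, 41.5% the GC box and 9.63% the TATA box. CpG dinucleotides numbered 14 for Mmp15, 5 for Mmp14 and 3 for Mmp9, and the median over all promoters was 9. These matches describe the letters of the windows.

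Levels of different genes were compared as normalized counts per kilobase of exon. Timp2 was the highest of the 7 detected members in every group, from 1253 ± 311 (SD, n = 3) in 57SCLC_cell to 6802 ± 1378 in 46LCNEC_allo. Mmp14 came next in both LCNEC groups (2370 ± 49.2 in cells and 6010 ± 911 in allografts) and in 57SCLC_allo (1108 ± 245), whereas Mmp15 came next in 57SCLC_cell (777 ± 195) and in Lung (1574 ± 67.5). In 57SCLC_cell, Mmp14 was at 0.575 ± 0.316 per kilobase, below every other detected member except Mmp16. Mmp16 was the lowest in all groups, between 0 and 7.28. With the length of the longest transcript in place of all exon bases, Mmp14 stood above Timp2 in 46LCNEC_allo (10741 against 7937) and in 57SCLC_allo (1981 against 1749), so the order of these genes in the allografts depended on the length used. In 46LCNEC_allo the Mmp14 and Timp2 levels lay within 1 SD of each other on exon length.

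**Figure D1:**
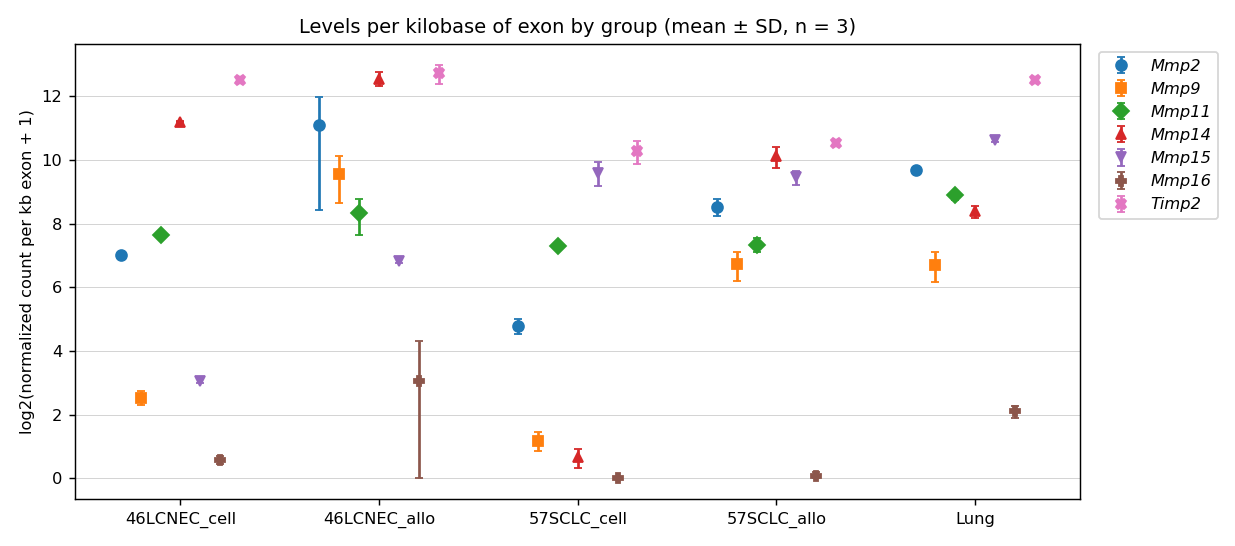
Levels of the 7 detected members per kilobase of exon in each group, on a log2(x + 1) axis, with points for the mean and bars for the SD over 3 samples. Timp2 is highest in every group, and Mmp14 runs from 6010 in 46LCNEC_allo to 0.575 in 57SCLC_cell.

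limma was run on log2-transformed normalized counts with 1 added, and a gene was called at an adjusted p of at most 0.01 and a change of at least 2-fold. Against Lung, 3 of the 7 members tested were called in 46LCNEC_allo (2 higher and 1 lower), where 35.6% of all genes tested were called. In 57SCLC_allo it was 6 of 7 (1 higher and 5 lower), beside 45.8% of all genes. In 46LCNEC_cell 6 of 7 were called (1 higher and 5 lower), beside 55.6%, and in 57SCLC_cell all 7 tested were lower than in Lung, beside 53.8%. A gene needed 10 normalized counts in 3 samples to be tested. Mmp9, Mmp14 and Mmp16 lay below 10 in every flask, so they entered through Lung alone and could only come out lower. The same held for Mmp16 in 46LCNEC_cell and in 57SCLC_allo. These 4 comparisons share the Lung samples. Between the lines, 5 of the 6 members tested were called in cells (1 higher and 4 lower in 57SCLC_cell), beside 46.1% of all genes. In allografts 4 of 6 were called (1 higher and 3 lower in 57SCLC_allo), beside 30.4%. From cells to allografts, 3 of 6 members rose in 46LCNEC and none fell (beside 22.8% of all genes called), and 3 of 6 rose in 57SCLC and none fell (beside 16.6%). Where the flasks were compared with the dishes or the 57SCLC tumors, Mmp9 and Mmp14 entered through the other group alone. Their directions there were set by the filter. The change from cells to allografts differed between the lines for 2 of 6 members, beside 17.5% of all genes. Leaving out dish C of 46LCNEC_cell lowered the number of all genes called between 46LCNEC_allo and 46LCNEC_cell from 3738 to 2428, with the same number of members called, 3. In bulk tissue, fewer cells of a type and less RNA per cell cannot be told apart.

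**Figure D2:**
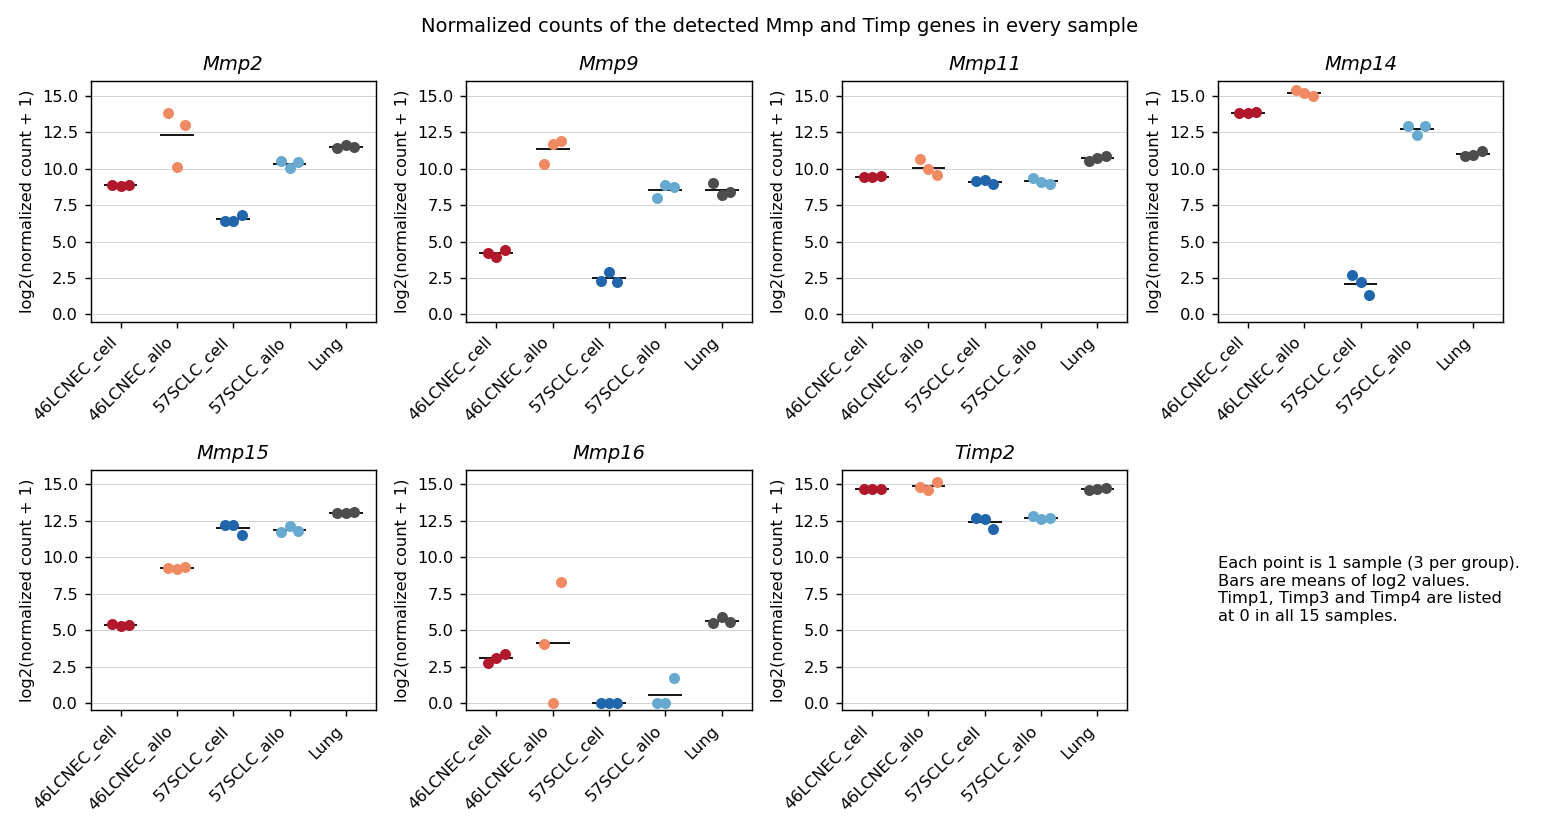
Each panel shows a detected member and each point a sample, as log2(normalized count + 1), with bars for the mean of 3 samples per group. Mmp14 and Mmp15 separate the 2 cell lines in opposite directions, and Mmp2 and Mmp16 spread widely over the 46LCNEC_allo tumors.

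Mmp14, the membrane-type enzyme that activates pro-Mmp2 and cleaves fibrillar collagen, was nearly undetected in 57SCLC cells (chr14:54668878-54682821, plus strand). It held 1869 normalized counts or more in every sample of the other groups. Its normalized counts were 5.45, 3.62 and 1.56 in flasks A, B and C of 57SCLC_cell, from 10, 6 and 3 reads. In 57SCLC_allo they were 7610, 5091 and 7799 in tumors 275, 316 and 317. In 46LCNEC_cell they were 14617, 14307 and 14913, and in 46LCNEC_allo they reached 42710, 36979 and 31476 in tumors 312, 319 and 321. The 5 groups did not overlap, and Lung (1869, 1924 and 2370) lay between the 57SCLC flasks and the 57SCLC tumors. Means in the 2 cultures differed 4121-fold, with a 95% counting interval of 2639 to 6845 from the 19 reads in the flasks, and the log2 difference was -11.75 (SE 0.30, adjusted p = 1.99e-08). From flasks to tumors, Mmp14 rose by 10.63 on the log2 scale (SE 0.34, adjusted p = 3.57e-07), a ratio of means of 1927 (counting interval 1234 to 3201). From dishes to tumors of 46LCNEC it rose 2.54-fold (log2 1.33, SE 0.14, adjusted p = 0.000320). The rise differed between the lines by 9.30 (SE 0.39, adjusted p = 1.43e-08), so the gap between lines narrowed from -11.75 in cells to -2.45 in allografts (SE 0.21, adjusted p = 0.000120). Both kinds of tumor stood above Lung, 18.0-fold in 46LCNEC_allo (log2 4.17, adjusted p = 7.18e-06) and 3.33-fold in 57SCLC_allo (log2 1.72, adjusted p = 5.32e-05). Dishes of 46LCNEC were 7.11-fold above Lung (log2 2.84, adjusted p = 9.12e-09) and flasks of 57SCLC were far below it (log2 -8.91, adjusted p = 1.58e-07).

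Markers of fibroblasts moved in the same direction as Mmp14 in 57SCLC. The summed level of 8 fibroblast markers was 113 to 149 in the flasks, where Lum was listed at 0, and 26619 to 40815 in the tumors, and 8 of 8 markers rose. In 46LCNEC the sum was 35714 to 38628 in the dishes and 296989 to 604541 in the tumors, and 7 of 8 rose, beside 22.8% of all genes called. In Lung the sum was 22835 to 25584. The sum of the 46LCNEC dishes, which hold no host tissue, lay above that of Lung through its collagens, with Col1a1 at 20963 ± 1332 against 2826 ± 645 in Lung. Of the 8 markers, 1 was called higher and 4 lower in the dishes than in Lung, beside 55.6% of all genes called. Lum averaged 0.736 in the dishes, so it could only come out lower there than in Lung and only rise in the tumors. Dcn was at 11.1 ± 2.70 in the dishes against 2535 ± 560 in Lung, and Pdgfra at 1190 ± 70.8 against 8146 ± 273. Macrophage markers (8 genes) summed to 311 to 343 in the flasks and 18312 to 32786 in the 57SCLC tumors, and 332 to 387 in the dishes and 42079 to 93055 in the 46LCNEC tumors. The part of host cells in the Mmp14 change was not tested.

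Mmp15, a second membrane-type enzyme, showed the opposite order of the lines (chr8:96078895-96101708, plus strand). Its normalized counts were 41.3, 37.5 and 39.2 in the 46LCNEC dishes and 4827, 4778 and 2980 in flasks A, B and C of 57SCLC. They were 609, 582 and 642 in the 46LCNEC tumors, 3363, 4448 and 3520 in the 57SCLC tumors and 8293, 8276 and 8915 in Lung. Every Lung sample was above every tumor and culture, and the 57SCLC flasks and tumors overlapped. Flasks exceeded dishes 107-fold (log2 6.67, SE 0.19, adjusted p = 3.20e-08), and 57SCLC tumors exceeded 46LCNEC tumors 6.18-fold (log2 2.62, SE 0.13, adjusted p = 1.76e-05). In 46LCNEC, Mmp15 rose 15.5-fold from dishes to tumors (log2 3.92, SE 0.17, adjusted p = 7.39e-06). In 57SCLC the difference was -0.13 (SE 0.20, adjusted p = 0.640), and the changes of the 2 lines differed by -4.05 (SE 0.25, adjusted p = 2.52e-07). Lung exceeded the dishes 216-fold (log2 -7.72, adjusted p = 6.72e-11), the 46LCNEC tumors 13.9-fold (log2 -3.80, adjusted p = 2.53e-06), and the 57SCLC tumors 2.25-fold (log2 -1.18, adjusted p = 3.56e-05). The flasks were 2.03-fold below Lung (log2 -1.05, adjusted p = 0.00100), close to the 2-fold limit. Without flask C, which had the lowest Mmp15 of the 3, this difference was -0.82 and no longer called. Scaling by library size made it -0.82 as well, and moved the 57SCLC tumors against Lung to -0.97.

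**Figure D3:**
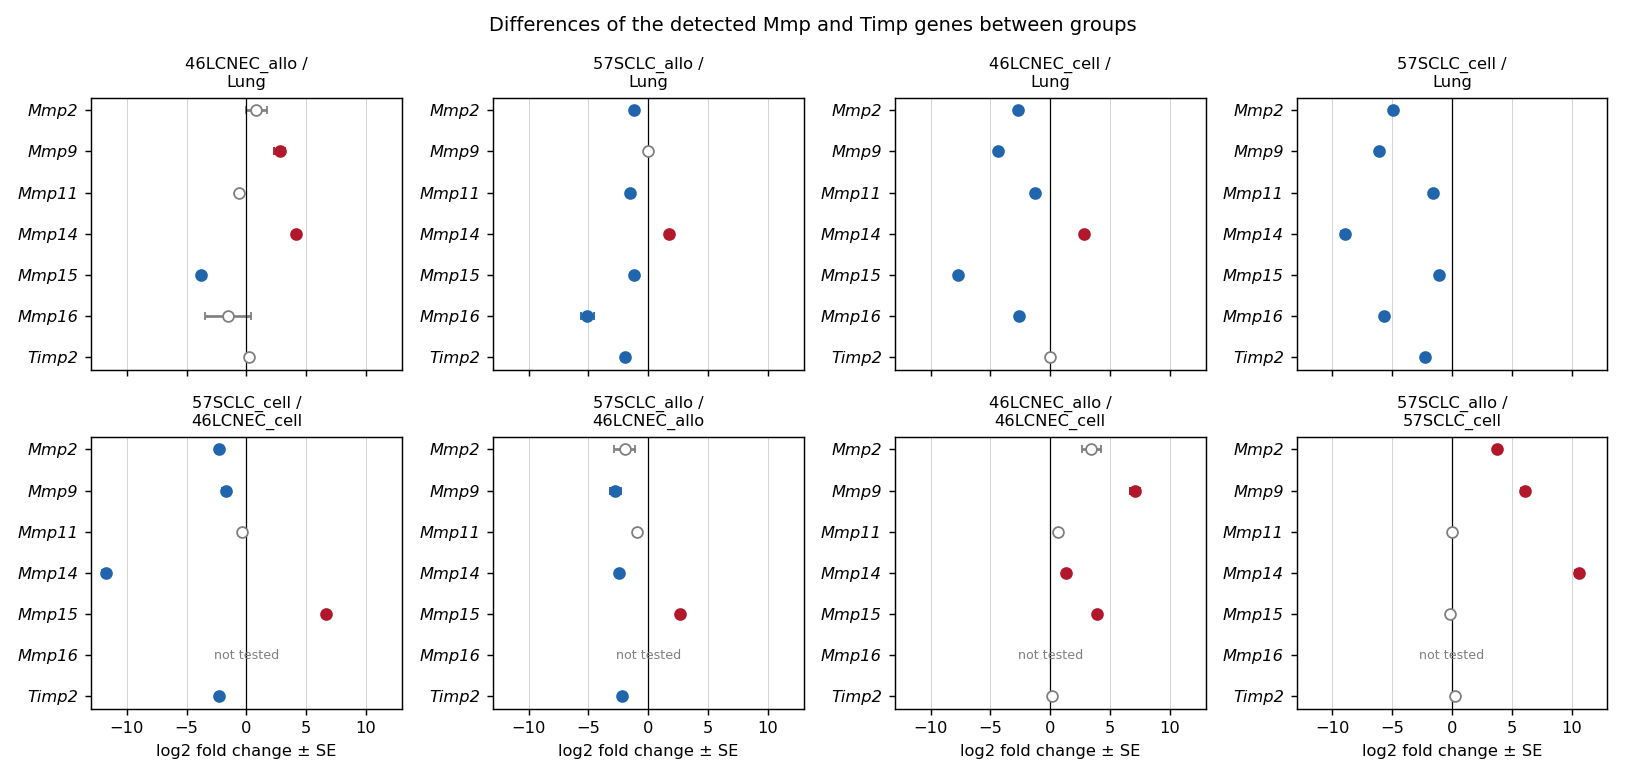
Log2 fold changes with their SE for the 7 detected members in 8 comparisons of 3 against 3 samples, the first group named over the second. Filled red points were called higher, filled blue points lower, and open points were not called. The points of Mmp16 in 57SCLC groups come from libraries with 0 to 2 reads and depend on the added count of 1.

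Mmp2, the secreted gelatinase that Mmp14 activates, rose from cells to tumors in 57SCLC and varied widely between the 46LCNEC tumors (chr8:93553902-93580049, plus strand). It was at 85.1, 84.4 and 114 normalized counts in the 57SCLC flasks and 1501, 1033 and 1397 in tumors 275, 316 and 317, a 13.9-fold rise (log2 3.78, SE 0.18, adjusted p = 1.78e-06). In the 46LCNEC dishes it was at 458, 443 and 474. Tumors 312 and 321 held 14273 and 8044, and tumor 319 held 1111. All 3 tumors were above all dishes, and the log2 difference of 3.46 (SE 0.83) gave an adjusted p of 0.0111, just outside the limit. Without tumor 319 the difference was 4.54 (adjusted p = 2.78e-05), and on the recovered reads edgeR gave 4.10 (adjusted p = 0.00568) with all tumors. The change from cells to tumors differed between the lines by 0.32 (SE 0.95, adjusted p = 0.817). In culture, 46LCNEC exceeded 57SCLC 4.86-fold (log2 -2.28, SE 0.15, adjusted p = 3.12e-06).

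Lung held 2732, 3086 and 2831 normalized counts of Mmp2, above both cultures (log2 -2.65 in 46LCNEC_cell, adjusted p = 4.30e-09, and -4.93 in 57SCLC_cell, adjusted p = 4.07e-08) and above every 57SCLC tumor (log2 -1.15, adjusted p = 0.000143). The last difference fell to -0.99 and was not called without tumor 316. The 46LCNEC tumors lay on both sides of Lung (log2 0.81, SE 0.88, adjusted p = 0.450) and of the 57SCLC tumors (log2 -1.96, SE 0.88, adjusted p = 0.0977). Without tumor 319, both passed, at 1.90 and -3.05. Tumor 319, lowest in Mmp2, had the highest summed fibroblast markers of the 3 (604541, against 538119 in tumor 312 and 296989 in tumor 321). The 3' end of Mmp2 shares 860 of its 3533 exon bases (24.3%) with the noncoding gene Gm45472, and how such reads were counted is not given.

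Mmp9, the other gelatinase, known from neutrophils and macrophages, was low in both cultures and rose in both kinds of tumor (chr2:164780439-164797771, plus strand). Its normalized counts were 17.8, 14.3 and 20.8 in the 46LCNEC dishes and 3.82, 6.63 and 3.65 in the 57SCLC flasks. In tumors they were 1291, 3315 and 3839 (312, 319 and 321) and 254, 473 and 435 (275, 316 and 317), and in Lung 521, 292 and 339. Tumors and cultures of the same line did not overlap, and the 57SCLC tumors overlapped with Lung. The rise was 160-fold in 46LCNEC (log2 7.11, SE 0.41, adjusted p = 2.20e-05) and 82.4-fold in 57SCLC (log2 6.08, SE 0.33, adjusted p = 2.82e-06, counting interval of the ratio 55.8 to 127 from 25 reads in the flasks). The difference between these rises was -1.03 (SE 0.57, adjusted p = 0.175). The 46LCNEC tumors exceeded the 57SCLC tumors 7.27-fold (log2 -2.76, SE 0.45, adjusted p = 0.00205), and without tumor 275 the adjusted p was 0.0111. They exceeded Lung 7.33-fold (log2 2.77, SE 0.44, adjusted p = 0.00179), with an adjusted p of 0.0106 without CT4 and 0.0103 without CT5. The 57SCLC tumors and Lung differed by 0.00 (SE 0.29, adjusted p = 0.990).

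The summed macrophage and neutrophil markers were higher in the tumors than in the cultures, as Mmp9 was. The 8 neutrophil markers summed to 3.31 to 7.69 in the dishes, where S100a9, Ly6g and Ltf were listed at 0, and 538 to 2158 in the 46LCNEC tumors. In 57SCLC they summed to 2.73 to 4.17 in the flasks, where S100a8, S100a9 and Retnlg were listed at 0, and 59.5 to 440 in the tumors. Of the 8 neutrophil markers, 4 could be tested in 46LCNEC and 4 rose, and 1 could be tested in 57SCLC and rose (Csf3r). All 8 averaged at most 2.02 in the dishes and 2.81 in the flasks, so those tested could only rise. Of 7 macrophage markers tested, 7 rose in each line, beside 22.8% of all genes called in 46LCNEC and 16.6% in 57SCLC. Marco was too low to be tested. Adgre1 and C1qb averaged 0 to 0.931 in the 2 cultures, so they too could only rise. The same held in the dishes for C1qa, Lyz2 and Mrc1 (0.880 to 2.19) and in the flasks for Csf1r (4.77). Within groups the order was shared only in part. Tumor 275 had the lowest Mmp9 and the highest neutrophil (440) and macrophage (32786) sums of the 57SCLC tumors. Tumor 319 had the lowest neutrophil (538) and macrophage (42079) sums of the 46LCNEC tumors with 3315 counts of Mmp9. Tumor 321 had the highest Mmp9 (3839), neutrophil sum (2158) and macrophage sum (93055) of the 46LCNEC tumors. In Lung, CT3 had the highest Mmp9 and neutrophil sum but the lowest macrophage sum, and CT4 the lowest Mmp9 and neutrophil sum. So few samples per group cannot settle an order. Lung had higher neutrophil sums (1902 to 7066) than the 57SCLC tumors at a similar level of Mmp9. The part of these cells in the Mmp9 rise was not tested.

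Mmp11 (stromelysin 3), a secreted enzyme that is processed inside the cell by furin, varied least between groups among the 6 Mmp members (chr10:75759055-75772330, minus strand). Its group means were 1670 ± 165 (SD, n = 3) in Lung, 695 ± 25.8 in the 46LCNEC dishes, 1125 ± 422 in the 46LCNEC tumors, 552 ± 48.8 in the 57SCLC flasks and 566 ± 86.7 in the 57SCLC tumors. Lung was highest, and differed from both cultures and from the 57SCLC tumors (log2 -1.26, -1.59 and -1.57). In the 46LCNEC tumors it was 1592, 1013 and 771, with tumor 312 inside the range of Lung, and the difference of -0.63 (adjusted p = 0.0732) was not called. No call was made between cells and tumors of either line (log2 0.63, adjusted p = 0.0658 in 46LCNEC, and 0.03, adjusted p = 0.889 in 57SCLC) or between the cultures (log2 -0.33, adjusted p = 0.0130). Between the tumors of the 2 lines the difference of -0.94 (adjusted p = 0.0241) became -1.18 and was called without tumor 321. Mmp11 shares 206 of its 3523 exon bases with Chchd10.

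Mmp16, the remaining membrane-type enzyme, was low in all groups except for 1 tumor (chr4:17852844-18125390, plus strand). It was at 43.4, 59.8 and 46.8 normalized counts in Lung and 5.63, 7.73 and 9.23 in the 46LCNEC dishes, and it was listed at 0 in all 3 57SCLC flasks. Tumors 275 and 316 had 0 reads and tumor 317 had 2. In 46LCNEC_allo, tumor 321 held 315, tumor 312 held 15.9 and tumor 319 held 0. Lung was at least 29.9-fold above the flasks, taking 3 reads per flask as the floor, and 6.64-fold above the dishes (log2 -2.59, SE 0.28, adjusted p = 2.12e-05, and 0.0969 in a model of all 15 samples). Over the 57SCLC tumors the ratio of means was 66.1, with a counting interval of 18.3 to 546 from their 2 reads. The 46LCNEC tumors spread over both sides of Lung (log2 -1.53, SE 1.90, adjusted p = 0.507). Mmp16 was too low to be tested in comparisons without Lung.

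Timp2, the inhibitor that also bridges Mmp14 and pro-Mmp2, was called between the lines but not between cells and tumors of either line (chr11:118191887-118246566, minus strand). Its normalized counts were 25934, 26266 and 26434 in the 46LCNEC dishes, 28780, 25151 and 37144 in the 46LCNEC tumors, and 24712, 26125 and 27353 in Lung. In 57SCLC they were 6543, 6238 and 4002 in the flasks and 7138, 6264 and 6670 in the tumors. Every 57SCLC sample was below every other sample, and dishes, 46LCNEC tumors and Lung overlapped. The lines differed 4.69-fold in culture (log2 -2.26, SE 0.18, adjusted p = 8.43e-06) and 4.54-fold in tumors (log2 -2.16, SE 0.17, adjusted p = 7.86e-05). Lung exceeded the 57SCLC flasks 4.66-fold (adjusted p = 1.17e-05) and the 57SCLC tumors 3.90-fold (adjusted p = 6.24e-07). From cells to tumors the log2 differences were 0.19 (SE 0.17, adjusted p = 0.358) in 46LCNEC and 0.29 (SE 0.18, adjusted p = 0.232) in 57SCLC, and they differed by 0.10 (SE 0.26, adjusted p = 0.794). Against Lung, 46LCNEC differed by 0.01 (SE 0.08) in dishes and 0.20 (SE 0.18) in tumors. Mmp14 and Timp2 thus changed unequally in 57SCLC, where Mmp14 rose from flasks to tumors and the Timp2 ranges overlapped. Timp2 shares 332 of its 4463 exon bases (7.44%) with Cep295nl, itself listed at 0 in all samples.

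Timp1, Timp3 and Timp4 were listed at 0 in all 15 samples, and no level or fold can be given for them. Each lies wholly inside the span of a synapsin gene on the opposite strand. Timp1 (chrX:20736316-20740976, plus strand) is inside Syn1 (chrX:20726750-20787397), Timp3 (chr10:86136236-86185371, plus strand) inside Syn3 (chr10:85884617-86334773) and Timp4 (chr6:115187773-115229336, minus strand) inside Syn2 (chr6:115111825-115261708). Of all 1394 protein-coding genes whose span lies wholly inside other genes, 1011 (72.5%) were at 0 in all samples, against 2291 of 9989 (22.9%) whose span is clear of other genes. Among nested genes with no exon base in another gene's exon, the case of Timp1, it was 418 of 519 (80.5%). The authors' handling of reads in overlapping genes is not given in the sources used here, and a zero of these 3 genes therefore does not show that they were silent.

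The synapsin genes, which encode proteins of synaptic vesicles, did have counts. Syn1 averaged 83.6 ± 7.12 (SD, n = 3) in Lung, 815 ± 34.4 in the 46LCNEC dishes, 584 ± 175 in their tumors, 1846 ± 268 in the 57SCLC flasks and 1275 ± 16.8 in their tumors. Syn2 was higher in 57SCLC (553 ± 25.8 in flasks and 999 ± 61.9 in tumors) than in 46LCNEC (9.27 ± 5.16 and 1.46 ± 1.70), with 341 ± 67.2 in Lung. Syn3 ranged from 42.3 ± 32.0 in 46LCNEC_allo to 256 ± 7.17 in Lung. Whether any of these counts contain reads of the nested Timp genes was not tested.

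**Figure D4:**
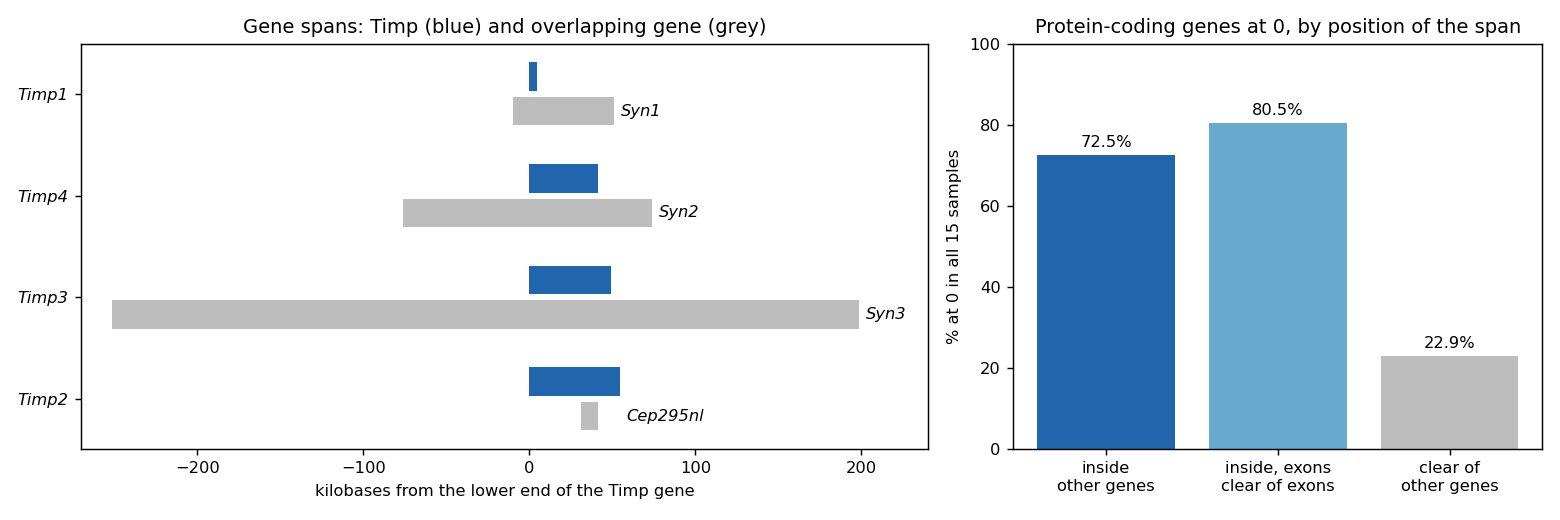
Left, spans of the 4 Timp genes (blue) and of the gene that overlaps each (grey), in kilobases from the lower end of the Timp gene. Right, percent of protein-coding genes at 0 in all 15 samples by the position of their span, 72.5% inside other genes, 80.5% inside with exons clear of other exons and 22.9% clear of other genes.

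Of 7 further Mmp genes, Mmp19 was listed at 0 in all samples and Mmp21 was too low to be tested. Mmp24, a membrane-type enzyme known from neural tissue, was at 2170 ± 216 in 57SCLC_cell and 1336 ± 132 in 57SCLC_allo, against 12.6 ± 2.39, 2.64 ± 2.51 and 5.60 ± 3.94 in 46LCNEC_cell, 46LCNEC_allo and Lung (log2 7.33 between the cultures, adjusted p = 1.43e-08). Mmp28 (epilysin) had the reverse pattern, at 0.730 ± 0.272 in 57SCLC_cell and 603 ± 69.6 in 46LCNEC_cell (log2 -8.45, adjusted p = 1.91e-08), and was highest in Lung (1358 ± 220). It rose by 4.02 on the log2 scale from 57SCLC flasks to tumors (adjusted p = 4.59e-05). Mmp23 was higher in 46LCNEC_cell (900 ± 45.8) than in 57SCLC_cell (119 ± 8.07), with a log2 difference of -2.91 (adjusted p = 1.13e-07).

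Among 25 genes for activators, cell surface receptors and binding partners of Mmps and Timps, 17 of 22 tested were lower and 3 higher in 57SCLC_cell than in 46LCNEC_cell, with a median log2 difference of -3.93 (0.00 over all genes tested, of which 46.1% were called). From 57SCLC flasks to tumors, 17 of 23 rose and 0 fell (median 3.01, and 0.00 over all genes, of which 16.6% were called). They included Sparc, a matrix-binding glycoprotein (6.02 ± 4.0 in flasks and 20326 ± 4854 in tumors), and Plat, a plasminogen activator (161 ± 7.17 and 456 ± 63.5). In 46LCNEC, 3 of 21 rose and 4 fell from dishes to tumors, beside 22.8% of all genes called, with Serpine2 up by 4.44 (adjusted p = 8.72e-05) and Thbs1, a thrombospondin, lower (log2 -2.43, adjusted p = 0.00248). Spock1, a testican, was listed at 0 in all 46LCNEC samples and held 908 ± 676 in the 57SCLC flasks and 7091 ± 2138 in the 57SCLC tumors. Between the lines it could only come out higher in 57SCLC.

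Timps also inhibit several enzymes of the Adam and Adamts families, which shed membrane proteins or process collagens and proteoglycans. Of 13 such genes, 10 of 12 tested were lower and 1 higher in 57SCLC_cell than in 46LCNEC_cell (median -5.24), where 46.1% of all genes tested were called. From cells to tumors, 9 of 13 rose and 0 fell in 57SCLC (median 3.89, beside 16.6% of all genes called), and 8 rose and 1 fell in 46LCNEC (median 1.34, beside 22.8%). The median over all genes was 0.00 in each of these 3 comparisons. The gene that fell was Adam12, from 7506 ± 268 in dishes to 2665 ± 583 in tumors (log2 -1.52, adjusted p = 0.000336), and in 57SCLC it was at 0.939 ± 0.367 in flasks and 460 ± 96.5 in tumors. Adamts2, a procollagen peptidase, rose by 9.31 in 57SCLC (adjusted p = 5.57e-07), from 2.16 ± 1.30 in flasks. Adam12 and Adamts2 lay below the filter of 10 in the flasks. They could only come out lower there than in the dishes, and only rise in the 57SCLC tumors. Against Lung, Adamts4, which cleaves aggrecan, was higher in 46LCNEC_allo (log2 6.49, adjusted p = 7.38e-06) and in 57SCLC_allo (log2 5.41, adjusted p = 9.85e-07), from 21.5 ± 5.67 in Lung.

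Of 12 matrix genes whose products Mmps cleave, all 12 were lower in 57SCLC_cell than in Lung (median -5.89, and -0.12 over all genes, of which 53.8% were called). Col1a1, Col1a2, Col3a1, Fn1 and Eln averaged 1.11 to 5.09 in the flasks, below the filter of 10. These genes could only come out lower than in Lung, and only higher in the tumors. From flasks to tumors, 10 of 12 rose and 0 fell (median 4.31, beside 16.6% of all genes called), with Col1a1, a chain of collagen I, at 2.72 ± 1.27 in flasks and 17928 ± 4242 in tumors. The 8 fibroblast markers all rose in the same comparison (median 8.58), and Col1a1 and Col3a1 belong to both lists. Pdgfrb, Dcn and Lum were also below the filter in the flasks and could only rise. In 46LCNEC 7 matrix genes rose and 2 fell (median 2.85, beside 22.8%), and among those that rose was Eln, the elastin gene, from 1.56 ± 0.635 in dishes to 2256 ± 884 in tumors. Eln lay below the filter in the dishes, so it could only rise. Between the cultures, 7 of 10 tested were lower and 3 higher in 57SCLC_cell (beside 46.1%), and the higher ones included the basement membrane collagens Col4a1 (log2 3.34) and Col4a2 (log2 3.38). Col1a1, Col1a2, Col3a1 and Fn1 entered through the dishes alone, so they could only come out lower.

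Genes with a profile most like each member were sought among 15073 genes with a mean of at least 50 normalized counts, by the root mean square difference of centered log2 values over the 15 samples. The closest matches were Kif1c (0.18) and Lamp2 (0.23) for Timp2 and Smim10l1 (0.21) and Gm16437 (0.22) for Mmp11. Mmp15 was nearest to Sox13 (0.51) and Dll1 (0.52), and Mmp14 to Col5a2 (0.55) and Ccdc80 (0.63). Col5a2, a chain of collagen V, was at 1102 in Lung, 3177 in the 46LCNEC dishes, 10487 in their tumors, 0 in the 57SCLC flasks and 2353 in their tumors, the order of Mmp14 in all 5 groups. Matches were looser for Mmp2 (Gm26510 at 0.71 and Tnfaip8l2 at 0.72), Mmp9 (Btnl9 at 0.73 and Fndc1 at 0.76) and Mmp16 (Itgb7 at 1.16 and Daam2 at 1.29).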

How the data were processed

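Polyadenylated RNA of 15 mouse samples, 3 in each of 5 groups, was sequenced from both ends. The authors used Rbowtie2 for alignment (build GRCm39), featureCounts with GENCODE release 27 for counting by gene, and DESeq2 for scaling by size factors. The deposited signal values are thus scaled counts, not raw counts. The strand setting and the treatment of reads in overlapping genes are not given in the sources used here. In each sample 100% of the values were whole multiples of 1 step (tolerance 0.1 reads), which gave back the reads.

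Each pair of groups was fitted in limma 3.58.1 (R 4.3.3), with a trended prior variance, after adding 1 to the normalized counts and taking log2. A fit held the 6 samples of the pair, and genes entered it when 3 or more of these reached 10 normalized counts. A gene below 10 in every sample of 1 group entered through the other group alone, so the direction of its difference was fixed by the filter. Adjusted p-values are Benjamini-Hochberg values over all genes tested. The added count makes the fold changes of low genes too small. The change from cells to allografts was compared between lines by an interaction term over 12 samples. The planned design was kept, and edgeR 4.0.16 and DESeq2 1.42.0 on the recovered reads were alternatives, with other scalings, filters, pseudocounts of 0.1 and 5, an adjusted p of at most 0.05, all 15 samples in 1 model and each sample left out. The fits were tested on simulated data. Positions, lengths and promoters came from GENCODE release 39 (GRCm39), in which 98.9% of the identifiers were found. A per-kilobase level over exon bases outside other genes was added after the values were seen. Counting intervals (95%, exact Poisson) and the floor of 3 reads cover counting error only.

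The members and the gene lists were chosen with earlier results of these data known. Named are the 10 members, the genes that overlap them, the 2 genes most alike to each, the fixed marker lists, and from the 4 related lists at most 3 called genes per list and comparison, those with the largest and smallest log2 fold changes. Mmp19, Mmp21 and the levels of named genes in other groups were added after their values were seen. Counts of reads outside genes were not analysed here. A few genes covered by the rule are not reported here. Scripts used Python 3.11.15, numpy 2.4.6, pandas 2.3.3 and matplotlib 3.10.9.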

Additional observations from a re-analysis of the deposited data

Results flagged for a closer look

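The change of Mmp14 from cells to allografts differed between the lines. It was 9.30 larger on the log2 scale in 57SCLC than in 46LCNEC (interaction term of limma, SE 0.39, adjusted p = 1.43e-08), with a rise in all 3 tumors of each line over all of its cultures. Over the alternatives tried, this difference ranged from 8.31 to 9.68.

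The change of Mmp15 also differed between the lines, by -4.05 on the log2 scale (SE 0.25, adjusted p = 2.52e-07). It rose in 3 of 3 tumors of 46LCNEC above the dishes, and the ranges of 57SCLC flasks and tumors overlapped. Over the alternatives tried, the difference ranged from -4.28 to -3.92.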

How the results depend on the processing

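Of 970 recomputed log2 differences of members, 930 kept their direction and their side of the thresholds, 9 gained and 14 lost a call, and 17 changed sign, all of them uncalled before and after. The sign changes were those of Mmp11 from 57SCLC_cell to 57SCLC_allo (-0.035 by TMM, -0.095 by the upper quartile, -0.092 to 0.12 with 1 sample left out), Mmp16 in 46LCNEC_allo against Lung (1.16 by DESeq2, 1.2 by edgeR, -3.62 to 0.53 with 1 left out), the Mmp2 interaction (-0.33 by DESeq2, -0.28 by edgeR, -0.77 to 1.07 with 1 left out), Mmp9 in 57SCLC_allo against Lung (-0.17 to 0.28 with 1 left out), Timp2 in 46LCNEC_cell against Lung (-0.028 to 0.045 with 1 left out) and the Timp2 interaction (-0.13 to 0.25 with 1 left out). The call of Mmp15 in 57SCLC_cell against Lung was lost by DESeq2 (-0.99), edgeR (-0.94), TMM (-0.94), library size (-0.82) and the upper quartile (-0.88). Mmp2 in 57SCLC_allo against Lung was lost by library size (-0.95) and with all 15 samples in 1 model, and Mmp2 in 57SCLC_allo against 46LCNEC_allo was gained by DESeq2 (-2.55). The cause of these changes was not tested. Scaling by library size moved the median of all genes from 0.01 to 0.28 between the allografts and from 0.00 to 0.24 between the cultures. The number of all genes called between 46LCNEC_allo and 46LCNEC_cell was 2428 to 4103 with 1 sample left out, and no other count of calls moved by more than 1.5 times. With the length of the longest transcript, Mmp14 per kilobase was 4235 in 46LCNEC_cell, 1.03 in 57SCLC_cell and 595 in Lung. The dishes and flasks share the letters A, B and C. Same-letter samples deviated with correlations of 0.09, -0.08 and -0.01, so they share only a letter, and a fit with the replicate block called 5 members and 7797 genes between the cultures. Tumor 275 had the fewest reads, which limits low genes in 57SCLC_allo.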
